A study of Mus musculus with 18 samples.

Results

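The CXC chemokines examined here were Cxcl1, Cxcl2, Cxcl5, Cxcl9, Cxcl10, Cxcl12, Cxcl14 and Cxcl16, a set of 8 genes. They were chosen by name from the 55401 gene identifiers of the count table, with earlier results of these data known. Their transcripts were followed in 18 RNA-seq libraries of mouse embryonic fibroblasts (MEFs), which are primary cells grown from minced embryos after removal of head and viscera. In the S6K1 series, wild-type (WT) MEFs with an empty retroviral vector (WT EV), WT MEFs with a vector for constitutively active HRAS (WT RAS) and S6K1 knockout MEFs with the same RAS vector (KO RAS) were compared. In the S6K1/S6K2 series the groups were WT EV, WT RAS and MEFs without S6K1 and S6K2 (double knockout) that carried RAS (DKO RAS), and each of the 6 groups held 3 libraries. S6K1 and S6K2, encoded by Rps6kb1 and Rps6kb2, are kinases that act downstream of mTORC1, and active RAS drives primary fibroblasts into senescence with secretion of cytokines and chemokines. The deletions were present from the germline, so the KO and DKO cells lacked the kinases before RAS was added, and a KO or DKO group with empty vector was not analysed here. The S6K1 KO and WT lines came from littermate embryos, whereas the WT lines of the S6K1/S6K2 series came from separate WT mothers, so loss of both kinases and the origin of the lines cannot be told apart in that series. Each library is a whole culture, and p-values measure the spread between these cultures.

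CXC chemokines are small secreted proteins that guide leukocytes through G protein-coupled receptors of the CXCR family. Those with a Glu-Leu-Arg motif before the first cysteines, here Cxcl1, Cxcl2 and Cxcl5, bind Cxcr2 and attract neutrophils, while Cxcl9 and Cxcl10 are induced by interferon and attract activated T cells and NK cells through Cxcr3. Cxcl12 is made steadily by stromal fibroblasts and signals through Cxcr4, with Ackr3 as a scavenging receptor, Cxcl14 is a chemokine of resting skin and stroma, and Cxcl16 is a membrane-bound ligand of Cxcr6 that the protease Adam10 sheds and that macrophages and dendritic cells also make.

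In the RefSeq annotation of GRCm38.p6, 5 members lie on chromosome 5 in a pair of clusters. Cxcl5 (ENSMUSG00000029371.7) spans chr5:90759298-90761625, Cxcl1 (ENSMUSG00000029380.11) chr5:90891245-90893121 and Cxcl2 (ENSMUSG00000058427.10) chr5:90903899-90905938, all on the plus strand. Further along the chromosome and on the minus strand are Cxcl9 (ENSMUSG00000029417.9, chr5:92321331-92328079) and Cxcl10 (ENSMUSG00000034855.13, chr5:92346638-92348889). The other members stand alone, with Cxcl12 (ENSMUSG00000061353.11) at chr6:117168535-117181368 on the plus strand, Cxcl14 (ENSMUSG00000021508.11) at chr13:56288643-56296811 on the minus strand and Cxcl16 (ENSMUSG00000018920.11) at chr11:70454389-70459984 on the minus strand. Of the 50-base windows in annotated Cxcl2 transcripts, 3.33% also occur in its paralog Cxcl3, which leaves a small part of its count uncertain. For Cxcl9 the share found in other genes was 0.38%, and it was 0% for the other 6 members. In the NCBIM37 annotation the gene spans of Cxcl10 and Cxcl16 overlap those of the plus-strand genes Art3 and Zmynd15, and overlap of exons was not examined. Reads of any shared exon are parted only if counting used strand, and the libraries were stranded per the methods of the study.

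Promoter sequence is given here as a description of the genes, and its relation to their levels was not tested. RefSeq promoter windows (GRCm38.p6) were held for 6 of the 8 members, with none for Cxcl5 and Cxcl16. The 250 bases before the start site of 4 of them are printed 5′ to 3′ on the gene's own strand, with capitals for matches to a κB motif (GGGNNNTTCC) or to an interferon-stimulated response element core (ISRE, GAAANNGAAA) on either strand. The windows are chr5:90890995-90891244 (plus) for Cxcl1, chr5:90903649-90903898 (plus) for Cxcl2, chr5:92348890-92349139 (minus) for Cxcl10 and chr6:117168285-117168534 (plus) for Cxcl12.
Cxcl1: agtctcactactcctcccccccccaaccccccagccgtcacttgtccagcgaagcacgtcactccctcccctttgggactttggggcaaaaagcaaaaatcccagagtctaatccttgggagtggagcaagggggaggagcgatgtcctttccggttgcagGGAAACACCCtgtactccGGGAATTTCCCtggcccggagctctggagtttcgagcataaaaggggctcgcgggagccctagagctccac
Cxcl2: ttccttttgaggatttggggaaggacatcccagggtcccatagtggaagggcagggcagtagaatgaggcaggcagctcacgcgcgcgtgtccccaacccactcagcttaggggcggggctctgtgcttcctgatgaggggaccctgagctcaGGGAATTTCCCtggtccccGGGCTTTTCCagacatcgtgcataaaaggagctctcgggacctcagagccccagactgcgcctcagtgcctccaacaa
Cxcl10: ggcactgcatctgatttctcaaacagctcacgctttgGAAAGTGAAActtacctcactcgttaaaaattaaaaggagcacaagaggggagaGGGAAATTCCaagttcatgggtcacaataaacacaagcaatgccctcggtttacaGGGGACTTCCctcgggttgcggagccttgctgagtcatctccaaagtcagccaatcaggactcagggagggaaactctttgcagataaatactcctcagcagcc
Cxcl12: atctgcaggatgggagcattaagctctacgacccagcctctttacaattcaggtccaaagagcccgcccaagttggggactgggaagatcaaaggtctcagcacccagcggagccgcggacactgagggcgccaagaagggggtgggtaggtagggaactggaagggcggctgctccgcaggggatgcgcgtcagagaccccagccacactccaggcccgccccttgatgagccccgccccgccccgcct
The κB motif had 3 matches each in Cxcl1 and Cxcl2, of which a pair in each gene overlaps on opposite strands, and 2 in Cxcl10. Cxcl10 also held 1 ISRE match. Among 32841 promoter windows of the same length, 4.65% held a κB match and 2.98% an ISRE match. The window held for Cxcl14 had 1 ISRE match and 1 match to a GAS motif (TTCNNNGAA, held by 7.02% of windows). That window, chr13:56296552-56296801 (minus), lies inside the gene span given above, so it is not the sequence before that span. The windows of Cxcl9 and Cxcl12 held no match to these letters. A match describes the sequence and was not tested for binding.

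Total counts per library were between 8319445 and 14402442. Levels are given as CPM, the count over the library's total count after TMM scaling within each series. A count of 0 allowed up to 0.209 to 0.357 CPM, a floor of 3 counts per library. Rps6kb1 was at 23.6 to 37.0 CPM in KO RAS against 61.6 to 74.6 CPM in WT RAS and at 34.5 to 39.7 CPM in DKO RAS against 75.5 to 83.7 CPM, and Rps6kb2 was at 2.68 to 3.04 CPM in DKO RAS against 24.1 to 28.9 CPM. Hras was higher in every WT RAS library than in any WT EV library of its series. Summed fibroblast markers (10 genes) were between 43750 and 54174 CPM in WT EV and between 23682 and 36310 CPM in all RAS groups, without overlap, and 4 of them fell with RAS in each series (1 rose in the S6K1 series). Markers of macrophages (16 genes, among them Csf1r, Adgre1, Lyz2 and C1qa) were detected above the floor in all libraries but for 3 of them in DKO RAS replicate 2 and 1 in DKO RAS replicate 3. Their sum in the S6K1 series was 3234, 2505 and 659 CPM for WT EV, 3711, 3377 and 738 CPM for WT RAS, and 861, 688 and 249 CPM for KO RAS. Replicates 1 to 3 of the S6K1/S6K2 series summed to 1445, 156 and 208 CPM for WT EV, 1023, 179 and 256 CPM for WT RAS, and 242, 74.0 and 97.3 CPM for DKO RAS. Endothelial markers (6 genes) summed to 7.71 to 13.6 CPM in all libraries. Among them Cdh5 rose from 0 to 2 counts in WT EV to 17 to 74 in RAS libraries. Tek fell in the S6K1/S6K2 series, from 37 to 85 counts in WT EV to 3 to 16 in WT RAS. Epithelial markers (6 genes) were at 1.33 to 10.2 CPM in WT EV and 58.7 to 167 CPM in all RAS groups. Most of this was Krt18 (4 to 131 counts in WT EV, 618 to 1827 in RAS libraries). Krt8 and Epcam rose at lower counts, while Krt5 and Krt14 had 0 to 1 counts and Cdh1 at most 11 in every RAS library. T cell and neutrophil markers (7 genes) were at 0.177 to 2.16 CPM in WT EV and 6.39 to 19.4 CPM in all RAS groups. That last rise was of Ly6g (0 to 1 counts in WT EV, 54 to 184 in RAS libraries) and S100a8 (0 counts, then 5 to 27), while Cd3e, Cd4, Cd8a and S100a9 had 0 to 1 counts in every RAS library and Csf3r at most 10. Macrophage sums thus differed between replicate numbers. At each number they were lower in KO RAS or DKO RAS than in WT RAS of the series, though these groups overlapped. In whole cultures fewer cells of a type and less RNA per cell cannot be told apart.

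To ask which CXC chemokine transcripts were most abundant in these cultures, levels were compared between members as CPM per kb of exon. In WT EV cells Cxcl12 and Cxcl14 led, at 135 ± 75.4 and 102 ± 32.8 CPM per kb (mean ± SD, n = 3) in the S6K1 series and 290 ± 65.1 and 110.2 ± 50.9 CPM per kb in the S6K1/S6K2 series. Cxcl5 came next, at 29.8 ± 12.8 and 48.6 ± 8.49 CPM per kb. Cxcl16, Cxcl1 and Cxcl10 were at 4.24 to 11.9 CPM per kb as group means, and Cxcl2 and Cxcl9 were at 0.0807 to 0.386 CPM per kb. The libraries of Cxcl12 and Cxcl14 overlapped in the S6K1 series and did not in the S6K1/S6K2 series, whereas those of Cxcl14 and Cxcl5 overlapped in the S6K1/S6K2 series alone. Those of Cxcl5 lay above all lower members in both. Among Cxcl16, Cxcl1 and Cxcl10 neighbours in the order overlapped, so their order is not resolved. By reads, Cxcl12 made up 58.7% to 93.3% of the counts of all 8 members in a library.

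**Figure D1:**
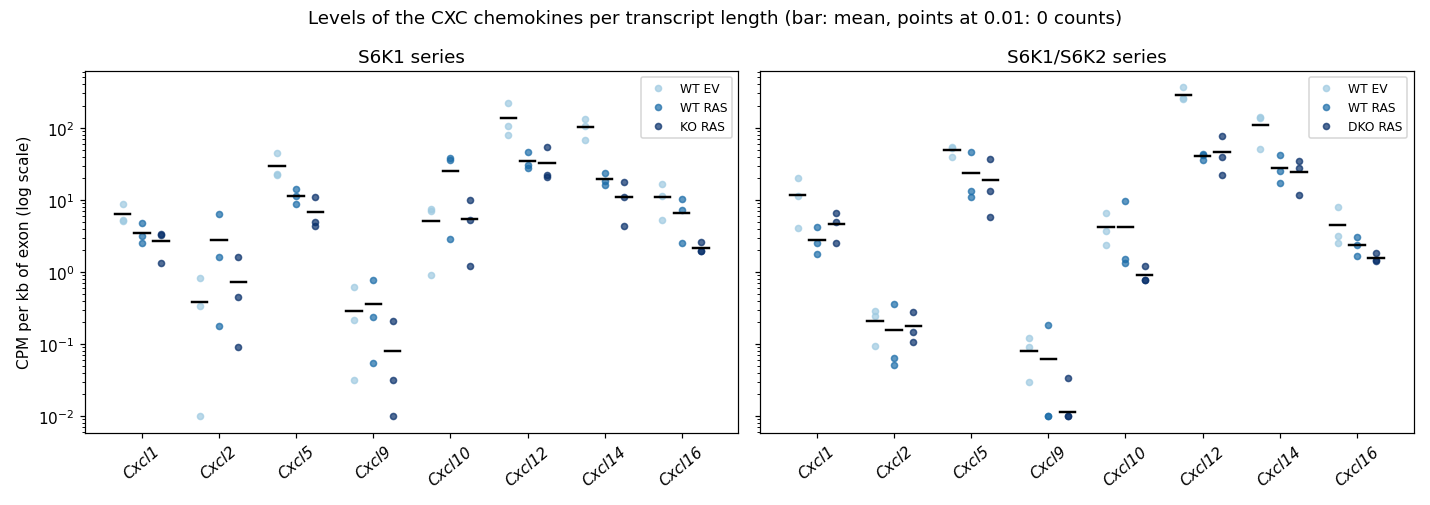
Levels of the 8 CXC chemokines as CPM per kb of exon (log axis) in the S6K1 series (left) and the S6K1/S6K2 series (right), with 1 point per library and a bar for the group mean of 3 libraries. Cxcl12 and Cxcl14 were highest in WT EV, at means of 135 and 102 CPM per kb in the S6K1 series, and Cxcl2 and Cxcl9 were lowest.

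With RAS the order changed in the S6K1 series, where Cxcl10 moved to the second place. It had 25.4 ± 19.5 CPM per kb in WT RAS, between Cxcl12 at 34.9 ± 9.95 and Cxcl14 at 19.3 ± 3.89 CPM per kb, and overlapped with both. In KO RAS of that series Cxcl10 was at 5.45 ± 4.34 CPM per kb, in the fourth place and overlapping with Cxcl5 before it and Cxcl1 after it. Cxcl10 in the S6K1/S6K2 series had 4.24 ± 2.16, 4.22 ± 4.84 and 0.918 ± 0.245 CPM per kb in WT EV, WT RAS and DKO RAS. In DKO RAS its 3 libraries lay below those of every member but Cxcl2 and Cxcl9.

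The effect of RAS in WT cells was asked first. In both series RAS lowered the stromal chemokines Cxcl12 and Cxcl14, and no member rose past the threshold in the fit on group alone. In the S6K1 series 7 members could be tested, as Cxcl9 was under the filter on low counts, and 3 fell (Cxcl5, Cxcl12 and Cxcl14) at an adjusted p under 0.05 in edgeR's quasi-likelihood test, where 13.2% of all 14036 genes were called. The median log2 fold change of the members was −0.88 against 0.00 over all genes. For the S6K1/S6K2 series 6 members could be tested, Cxcl2 and Cxcl9 being under the filter, and 3 fell (Cxcl1, Cxcl12 and Cxcl14), where 26.3% of 13881 genes were called. The median was −1.51 against −0.02 over all genes. The groups did not overlap for 4 members in the S6K1 series (Cxcl1, Cxcl5, Cxcl12 and Cxcl14), as for 30.9% of all genes, and for 2 in the S6K1/S6K2 series (Cxcl12 and Cxcl14), as for 42.5%.

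Same-numbered libraries in the S6K1 series deviated together, so a fit blocked on replicate number is given beside the main one. With the block, all 7 members tested passed the threshold for RAS against EV in the S6K1 series, with Cxcl2 and Cxcl10 higher and the other 5 lower, where 36.2% of all genes were called. There were 2 calls left with the block in the S6K1/S6K2 series, Cxcl12 and Cxcl14, where 28.7% of genes were called. Blocked fits of that series, and of the contrasts between series, share their replicate terms with the DKO libraries. Replicate numbers do not pair DKO with WT libraries (correlations 0.279, 0.454 and −0.0351), so these blocked values are not a clean paired check. The main counts also rested on single libraries. In the S6K1 series 1 member remained called without WT EV replicate 3, WT RAS replicate 1 or WT RAS replicate 2, and it was Cxcl14 each time, where 9.32%, 8.27% and 7.33% of all genes were called. Cxcl12 was the 1 member that remained called in the S6K1/S6K2 series without WT EV replicate 2, WT RAS replicate 2 or WT RAS replicate 3, where 16.3%, 14.4% and 15.4% were called.

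**Figure D2:**
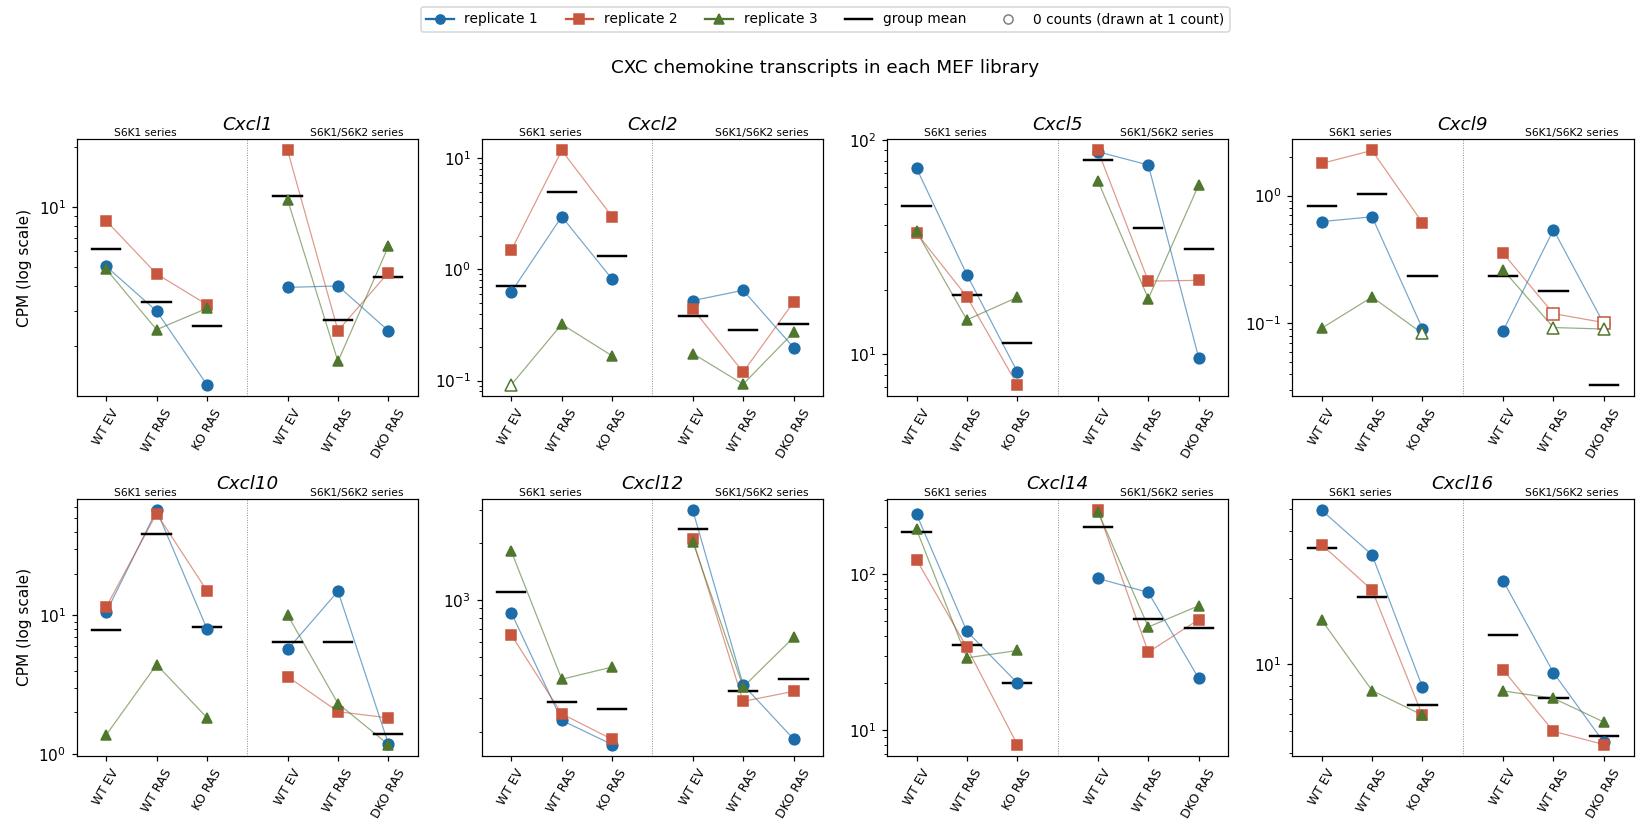
CPM (log axis) of each CXC chemokine in every library, with lines joining libraries of 1 replicate number within a series, bars for group means (n = 3) and open symbols for counts of 0. Cxcl12 and Cxcl14 were lower in WT RAS than in WT EV at each replicate number, and Cxcl10 was higher in WT RAS than in WT EV and KO RAS at all 3 numbers of the S6K1 series.

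Cxcl12, the ligand of Cxcr4, had the lowest log2 fold change with RAS of the 6 members tested in the S6K1/S6K2 series. It had 853, 649.9 and 1805 CPM in WT EV and 229, 248 and 379 CPM in WT RAS of the S6K1 series. Its S6K1/S6K2 series values were 2983, 2093 and 2031 CPM in WT EV and 354, 289 and 345 CPM in WT RAS. Every RAS library lay below every EV library of its series. This gave log2 fold changes of −1.95 (SE 0.47, edgeR adjusted p 0.0255) and −2.85 (SE 0.40, adjusted p 0.00121). In the S6K1 series the call was lost without WT EV replicate 3, the highest library (−1.40, adjusted p 0.0751), WT RAS replicate 1 (−1.81, adjusted p 0.0937) or WT RAS replicate 2 (−1.85, adjusted p 0.103), and with the replicate block it held (−1.84, adjusted p 1.99e-05).

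No further fall of Cxcl12 was detected with loss of the kinases. KO RAS had 171, 182 and 439.6 CPM and DKO RAS 183, 327 and 631 CPM, with replicate 3 highest in both. Both groups overlapped WT RAS. The log2 fold change was −0.11 (SE 0.46, adjusted p 0.997) with S6K1 loss and 0.21 (SE 0.37, edgeR adjusted p 1) with loss of both kinases. Its scavenging receptor Ackr3 fell with RAS along with it, from 23.6 to 42.0 CPM in WT EV to 5.53 to 5.62 CPM in WT RAS of the S6K1 series (log2 ratio −2.46, SE 0.26, adjusted p 0.00056) and from 47.6 to 94.7 to 3.57 to 10.5 CPM in the S6K1/S6K2 series (−3.29, SE 0.45, adjusted p 0.00113). Cxcr4 was at 0.442 to 16.1 CPM over all libraries and was called in no comparison of all libraries, with or without the block, but without the replicate 1 libraries of the S6K1/S6K2 series it rose with RAS (3.67, SE 0.68, adjusted p 0.00628), from 0.442 and 0.874 to 11.4 and 5.65 CPM.

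Cxcl14, a chemokine of resting stroma, had 243, 124 and 194 CPM in WT EV and 42.9, 33.8 and 29.0 CPM in WT RAS of the S6K1 series. Values of the S6K1/S6K2 series were 93.9, 257 and 252 CPM in WT EV and 76.3, 31.6 and 45.8 CPM in WT RAS. No RAS library reached an EV library of its series, though EV replicate 1 and RAS replicate 1 of the S6K1/S6K2 series came near each other. Its log2 fold change was −2.41 (SE 0.44, edgeR adjusted p 0.00701) in the S6K1 series and kept its call without any 1 library. It was −1.97 (SE 0.49, adjusted p 0.0162) in the S6K1/S6K2 series, where the call was lost without WT EV replicate 2 (adjusted p 0.0530), WT RAS replicate 2 (0.0665) or WT RAS replicate 3 (0.0622).

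With S6K1 loss Cxcl14 had 20.0, 8.05 and 32.3 CPM in KO RAS, where replicates 1 and 2 lay below all WT RAS libraries and replicate 3 among them. The log2 fold change was −0.81 (SE 0.43, edgeR adjusted p 0.872, or 0.153 with the block). DKO RAS had 21.4, 51.1 and 62.6 CPM, across the range of WT RAS (−0.19, SE 0.48, adjusted p 1).

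Among the neutrophil attractants, Cxcl5 was the most abundant. Its levels were 73.7, 36.7 and 37.4 CPM in WT EV and 23.5, 18.5 and 14.5 CPM in WT RAS of the S6K1 series, without overlap (log2 ratio −1.39, SE 0.40, edgeR adjusted p 0.0491). This call lay at the threshold. It was lost when any 1 of the 6 libraries was left out (adjusted p 0.0607 to 0.158) and under DESeq2 size factors (0.0502), upper-quartile scaling (0.0555), a minimum of 10 counts in every library (0.0554) and a fit over all 18 libraries (0.152), and it held with the replicate block (0.00908) and in DESeq2.

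Cxcl5 in the S6K1/S6K2 series had 87.8, 89.1 and 64.2 CPM in WT EV and 76.3, 21.9 and 18.2 CPM in WT RAS, where replicate 1 stayed among the EV libraries (−1.05, SE 0.65, adjusted p 0.257). Without the replicate 1 libraries, chosen for removal after the macrophage markers were seen, the log2 fold change was −1.93 (edgeR adjusted p 0.0115). After S6K1 loss it had 8.28, 7.20 and 18.4 CPM, with replicate 3 inside the WT RAS range (−0.74, SE 0.40, adjusted p 0.890). DKO RAS had 9.61, 22.1 and 61.5 CPM, as wide a range as WT RAS (−0.31, SE 0.66, adjusted p 1), and the fold change turned to 1.07 without the replicate 1 libraries.

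Cxcl1, also a Cxcr2 ligand, was a low transcript, at 14 to 217 counts per library. It had 5.01, 8.50 and 4.86 CPM in WT EV and 2.99, 4.59 and 2.41 CPM in WT RAS of the S6K1 series, which did not overlap (log2 fold change −0.88, SE 0.40, edgeR adjusted p 0.197, or 0.0207 with the block). For the S6K1/S6K2 series it had 3.93, 19.2 and 10.8 CPM in WT EV and 4.0, 2.38 and 1.67 CPM in WT RAS. Replicate 1 was alike with and without RAS, and the fall lay in replicates 2 and 3. The log2 fold change was −2.08 (SE 0.59, edgeR adjusted p 0.0281, or 0.0526 with the block), and it lost the threshold without WT EV replicate 2 (−1.46, adjusted p 0.109), WT RAS replicate 2 (−2.0, adjusted p 0.0940) or WT RAS replicate 3 (−1.82, adjusted p 0.102). In KO RAS there were 1.27, 3.22 and 3.08 CPM (−0.39, SE 0.41, adjusted p 0.997). DKO RAS had 2.38, 4.66 and 6.32 CPM (0.74, SE 0.59, adjusted p 1), with 2 libraries above all 3 of WT RAS.

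Cxcl2, another neutrophil attractant, which the study measured by RT-qPCR in mouse liver, was near the floor in most libraries. In the S6K1 series it had 0.626, 1.49 and 0 CPM (9, 20 and 0 counts) in WT EV. There were 2.99, 11.8 and 0.321 CPM (35, 151 and 4 counts) in WT RAS, while KO RAS had 0.819, 2.99 and 0.167 CPM (9, 39 and 2 counts). At every replicate number it was higher in WT RAS than in WT EV and in KO RAS, and all 3 groups overlapped.

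The log2 fold change of Cxcl2 with RAS was 2.77 (SE 1.29, edgeR adjusted p 0.209, or 0.000132 with the block). Most of the mean came from WT RAS replicate 2, without which it was 1.19. For S6K1 loss the log2 fold change was −1.90 (SE 1.22, adjusted p 0.983, or 0.0052 with the block), and without WT RAS replicate 2 it was −0.31. Across the S6K1/S6K2 series Cxcl2 had 1 to 6 counts per library (0.0927 to 0.648 CPM), and a change was not detectable at this depth.

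Cxcl9 and Cxcl10 are the interferon-induced ligands of Cxcr3. From RNA-seq of these MEFs the study reported lower pro-inflammatory factors in both KO RAS and DKO RAS. A fall here in either group is therefore not independent evidence of direction. Cxcl10 was the more abundant of the pair. It had 10.5, 11.5 and 1.37 CPM for WT EV in the S6K1 series, 57.1, 54.1 and 4.42 CPM once RAS was present and 8.0, 15 and 1.83 CPM when S6K1 was also lost. Replicate 3 was lowest in all 3 groups, and at each replicate number WT RAS was higher than both WT EV and KO RAS.

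With RAS the log2 fold change of Cxcl10 was 2.29 (SE 1.00, edgeR adjusted p 0.182), and the 3 ratios between same-numbered libraries were 1.65 to 2.44 on the log2 scale. The replicate block gave 2.25 (SE 0.22, adjusted p 4.74e-05), and 2.34 (adjusted p 0.00509) came without the replicate 3 libraries, where 11.0% of all genes were called. With no filter on low counts it also passed (adjusted p 0.0405). In the S6K1/S6K2 series the same comparison was flat on average. WT EV had 5.68, 3.62 and 10.1 CPM and WT RAS 14.9, 2.02 and 2.32 CPM (log2 fold change −0.01, SE 0.70, adjusted p 0.994). Replicate 1 was higher with RAS there while replicates 2 and 3 were lower, and without the replicate 1 libraries the log2 fold change was −1.64 (edgeR adjusted p 0.0461), where 5 members fell and 27.4% of all genes were called. WT RAS replicate 1 alone decided this, as leaving it out gave −1.56 (adjusted p 0.0473).

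The RAS effect on Cxcl10 in the S6K1/S6K2 series minus that in the S6K1 series was −2.33 on the log2 scale (SE 1.33, edgeR adjusted p 0.467, or 0.102 with the block), so a difference between the series was not shown. For Cxcl2 it was −3.21 (SE 1.87, adjusted p 0.477, or 0.0760 with the block). A difference in RAS effect between the series was called for 0 of 7 members in edgeR (0 with an unadjusted p under 0.05, 0 in DESeq2), as for 0% of 14483 genes, of which 1819 had an unadjusted p under 0.05. Series and batch cannot be told apart in that contrast.

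Loss of the kinases under RAS was compared next. All 7 members tested had a lower fitted level in KO RAS than in WT RAS, with a median log2 fold change of −0.81 against 0.03 over all genes, and 0 passed the threshold in edgeR, where 0.00712% of genes were called (1 gene, Dhx40, named after its value was seen). The deleted gene Rps6kb1 was itself not called in this fit, although every KO RAS library lay below every WT RAS library. The lack of a call here is therefore not evidence that a member was unchanged. An unadjusted p under 0.05 was found for 1 member, Cxcl16, and DESeq2 called 0 members. No member was without overlap, against 8.02% of all genes. With the replicate block 3 members fell (Cxcl2, Cxcl10 and Cxcl16), where 4.15% of genes were called. Without the replicate 3 libraries 2 fell (Cxcl10 and Cxcl16), where 2.69% were called. Those libraries were the lowest of their groups in macrophage markers, and their removal was chosen after seeing the data.

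In the S6K1/S6K2 series 2 of the 6 members tested had a higher and 4 a lower fitted level in DKO RAS, with a median log2 fold change of −0.25 against 0.00 over all genes. In edgeR 0 were called, where 0.0216% of genes were (3 genes, of which Rps6kb1 and Rps6kb2 are the targeted ones). Cxcl10 had an unadjusted p under 0.05 and was the only member without overlap, against 6.07% of all genes, and DESeq2 called 0. Without the replicate 1 libraries 0 were called, where 0.0215% of genes were. A difference in loss effect between the series was called for 0 members in edgeR (0 with an unadjusted p under 0.05, 0 in DESeq2), where 0.00690% of genes were called.

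**Figure D3:**
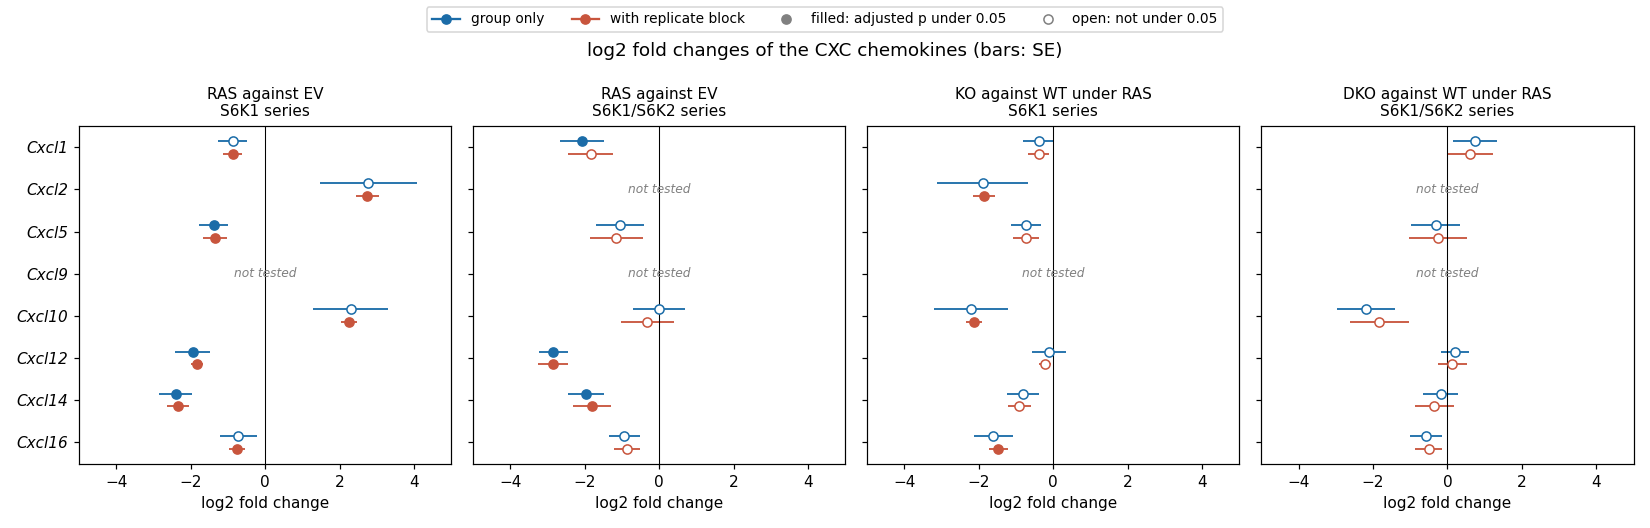
log2 fold change with SE of each CXC chemokine in the 4 comparisons, from the fit on group alone (blue) and with the replicate block (red), filled where the adjusted p in edgeR was under 0.05. In KO against WT the block narrowed the SE of Cxcl10 from 1.00 to 0.22 while its log2 fold change stayed at −2.21 and −2.14.

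Cxcl10 had the lowest fitted log2 fold change of the members with S6K1 loss, −2.21 (SE 1.00, unadjusted p 0.0534, edgeR adjusted p 0.749). Ratios between same-numbered libraries were −2.83 to −1.25. The replicate block gave −2.14 (SE 0.22, adjusted p 0.000336), and −2.26 (adjusted p 0.0149) came without the replicate 3 libraries. The KO RAS mean, 8.29 ± 6.60 CPM, lay close to that of WT EV, 7.79 ± 5.57 CPM.

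DKO RAS had 1.19, 1.82 and 1.17 CPM of Cxcl10, all below the lowest WT RAS library at 2.02 CPM. The log2 fold change was −2.19 (SE 0.77, unadjusted p 0.0179, edgeR adjusted p 1), and it minus the effect of S6K1 loss was 0.07 (SE 1.6). It rested on WT RAS replicate 1, at 14.9 CPM, without which it was −0.64. Replicates 2 and 3 of WT RAS, at 2.02 and 2.32 CPM, were close to the DKO libraries.

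Cxcl9 was at or near the floor. The S6K1 series gave 9, 24 and 1 counts in WT EV, 8, 29 and 2 with RAS, and 1, 8 and 0 for KO RAS (0 to 2.26 CPM). At each replicate number KO RAS was below WT RAS, and without the filter its log2 fold change was −2.04 (SE 0.95, edgeR adjusted p 0.890). The S6K1/S6K2 series gave 1, 4 and 3 counts in WT EV, 5, 0 and 0 with RAS, and 1, 0 and 0 for DKO RAS, which gives no fold change at this depth.

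Cxcl16, the transmembrane ligand of Cxcr6, had 49.5, 34.7 and 15.8 CPM for WT EV in the S6K1 series, 31.2, 21.6 and 7.63 CPM with RAS added and 7.91, 5.90 and 5.92 CPM for KO RAS. Levels stepped down from WT EV to WT RAS to KO RAS at all 3 replicate numbers, and replicate 1 of KO RAS still overlapped replicate 3 of WT RAS. With RAS the log2 fold change was −0.73 (SE 0.50, edgeR adjusted p 0.397, or 0.0222 with the block). With S6K1 loss it was −1.62 (SE 0.53, unadjusted p 0.0129, adjusted p 0.587), which passed with the replicate block (−1.48, SE 0.25, adjusted p 0.00886) and without the replicate 3 libraries (−1.93, adjusted p 0.0244).

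Cxcl16 in the S6K1/S6K2 series had 23.8, 9.46 and 7.6 CPM for WT EV, 9.18, 5.0 and 7.04 CPM for WT RAS, and 4.46, 4.36 and 5.50 CPM for DKO RAS. All 3 groups overlapped their neighbour. RAS gave −0.94 (SE 0.42, edgeR adjusted p 0.121), which passed only without WT EV replicate 3 among the libraries left out singly (−1.22, adjusted p 0.0426), and loss of both kinases gave −0.57 (SE 0.43, adjusted p 1). The genes of its sheddases, Adam10 and Adam17, were at 226 to 292 and 103 to 121 CPM as group means and were called in no comparison of all libraries, and Adam10 was higher with RAS without the replicate 1 libraries of the S6K1/S6K2 series (0.46, SE 0.14, adjusted p 0.0455).

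Macrophage markers moved with several of these values. In KO RAS all 16 macrophage markers were lower than in WT RAS (median log2 fold change −2.19, 16 with an unadjusted p under 0.05, 0 called in edgeR or 16 with the replicate block), and in DKO RAS all 16 were lower (median −1.96, 2 with an unadjusted p under 0.05, 0 called). With RAS 0 were called in either series (medians 0.07 and −0.77). The replicate block gave 5 that rose and 2 that fell in the S6K1 series, and 4 that fell in the S6K1/S6K2 series. Over all genes the block called 36.2% and 28.7% in those fits, and 4.15% for S6K1 loss. Across the 18 libraries, after centring on the group means, the log2 level of Cxcl16 followed the summed markers with Pearson's r of 0.85, Cxcl10 with 0.72, Cxcl2 with 0.67 and Cxcl9 with 0.57. The values for Cxcl5, Cxcl1, Cxcl14 and Cxcl12 were 0.15, −0.28, −0.30 and −0.42. After centring on series means instead, they were 0.41, 0.025, 0.24 and 0.13, so the negative signs depended on the centring. Cxcl16, Cxcl10, Cxcl2 and Cxcl9 then had 0.82, 0.73, 0.49 and 0.69. These r describe 18 libraries, some of which share cultures' origin and batch. The part of macrophage transcripts in the lower Cxcl16, Cxcl10 and Cxcl2 of KO RAS was not tested. Under RAS in the S6K1 series the highest macrophage sums were those of WT RAS replicates 1 and 2, the same libraries that had the most Cxcl10.

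**Figure D4:**
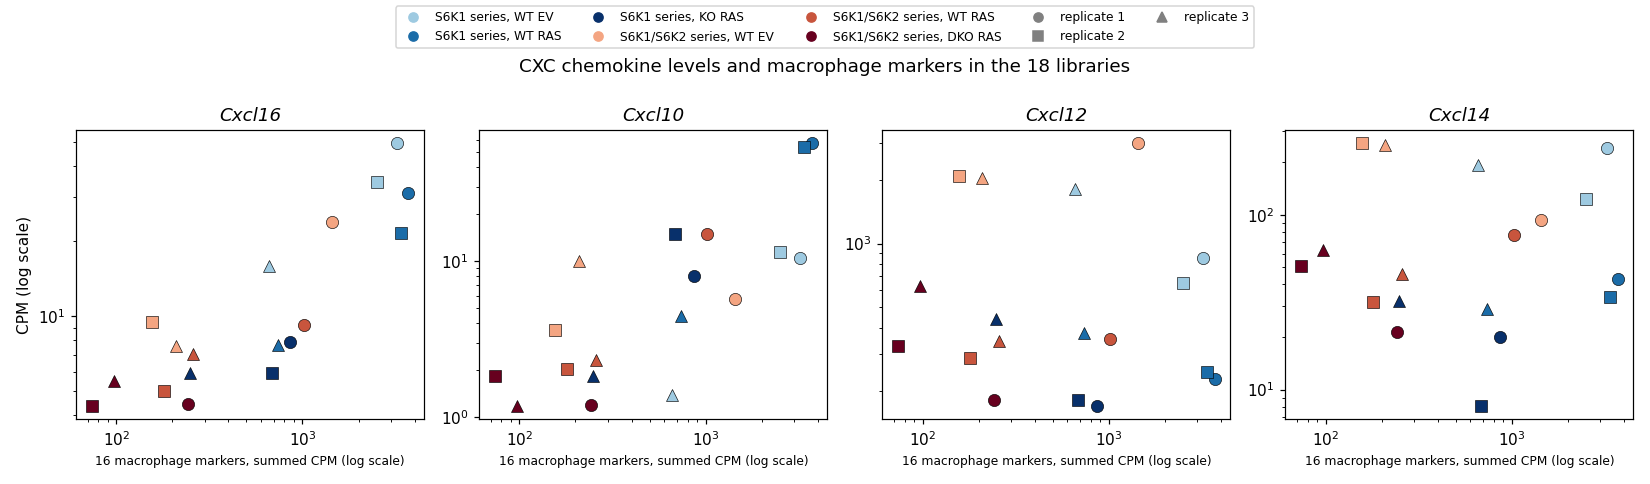
CPM of Cxcl16, Cxcl10, Cxcl12 and Cxcl14 against the summed CPM of 16 macrophage markers in 18 libraries (log axes), with colour for group and symbol for replicate number. Cxcl16 climbs with the markers (r = 0.85 after centring on group means) and Cxcl10 does so with more spread (0.72). Cxcl12 and Cxcl14 do not (−0.42 and −0.30, or 0.13 and 0.24 after centring on series means).

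Members fell into sets that varied together within groups. Over the 18 libraries, centred on group means, the log2 levels of Cxcl2, Cxcl9 and Cxcl10 had Pearson's r of 0.84 to 0.88 with one another, and Cxcl10 had 0.66 with Cxcl16. Cxcl12 ran against this set, at −0.57 with Cxcl10 and −0.66 with Cxcl9. Cxcl5 went with Cxcl14 (0.69) and Cxcl12 (0.54). Cxcl1 was closest to Cxcl5 (0.46), and its r with Cxcl2, its neighbour on chromosome 5, was 0.34. Cxcl2 and Cxcl9 were at a few counts in many libraries, which widens the error of their r.

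Among 13591 genes, those with the most similar pattern over 18 libraries (log2 CPM centred on the series mean) were Tgfb2, Rcn3 and P3h3 for Cxcl12 (r = 0.98, 0.98 and 0.97) and Sirpa, Bhlhe41 and Rapgef5 for Cxcl16 (0.97, 0.96 and 0.96). For Cxcl10 they were Rsad2, Mtmr14 and Oas1g (0.96, 0.92 and 0.91) and for Cxcl2 Ifit2, Cxcl10 and Junb (0.80 each). Hacd4, Prelp and Tmem178 were nearest to Cxcl14 (0.95 each), Rarres1, Ptx3 and Ccn5 to Cxcl5 (0.95, 0.92 and 0.91), and Il1r1, Esco2 and Fanci to Cxcl1 (0.91, 0.90 and 0.90).

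Of the other CXC ligands, 4 of 7 could be tested in each series. Cxcl15, also called lungkine, fell with RAS from 18.9 to 33.3 CPM to 0.389 to 2.01 CPM among libraries of the S6K1 series (log2 ratio −4.57, SE 0.67, adjusted p 0.00241) and from 43.2 to 113 CPM to 2.04 to 3.24 CPM in the S6K1/S6K2 series (−4.80, SE 0.72, adjusted p 0.00167). It fell further on the log2 scale than any member tested. Pf4, the platelet CXC chemokine, rose with RAS in the S6K1 series (2.72, SE 0.76, adjusted p 0.0454) and had 2.09 (adjusted p 0.0610, or 0.00475 with the block and 0.0118 without the replicate 1 libraries) in the other. With S6K1 loss Pf4 had −1.30 (adjusted p 0.888, or 0.0132 with the block). Ppbp was called in no fit on group alone over all libraries, and it fell with RAS in the S6K1 series with the block (−0.71, adjusted p 0.0430) and without the replicate 3 libraries (−1.13, adjusted p 0.0396). Cxcl3 passed in none of these fits. Of 8 CXC receptors only Ackr3 and Cxcr4 could be tested. Cxcr1, Cxcr2 and Cxcr5 had at most 2 counts in a library, Cxcr3 at most 9, Ackr1 at most 8 and Cxcr6 at most 16, so the receptors for most of these ligands were at or near the floor.

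The NF-κB list (14 subunits, kinases and inhibitors) held 1 gene that rose and 1 that fell with RAS in the S6K1 series. It held 2 that rose in the S6K1/S6K2 series. With the replicate block 2 rose and 1 fell in the former, and 2 rose and 2 fell in the latter. Over all genes 13.2% and 26.3% were called for RAS in these series (36.2% and 28.7% with the block). Tnfaip3, a feedback inhibitor of NF-κB, rose in both (log2 fold change 1.43, SE 0.29, adjusted p 0.012 and 1.44, SE 0.26, adjusted p 0.0037). Rel fell in the S6K1 series (−0.73, adjusted p 0.0298), and Nfkbiz rose in the S6K1/S6K2 series (1.17, adjusted p 0.0321). No gene of the list was called with loss of S6K1 or of both kinases in edgeR, with 0 at an unadjusted p under 0.05 in each, and the block called 0 too. Of 16 interferon signalling genes, 14 could be tested and 0 were called with RAS in the S6K1 series (3 with an unadjusted p under 0.05, and 3 rose and 1 fell with the replicate block). Among those called in the S6K1/S6K2 series, Jak2 rose (0.70, adjusted p 0.00624) and Irf1 (−1.31, adjusted p 0.00295) and Irf9 (−1.07, adjusted p 0.0181) fell, and the difference between the series did not pass for Irf1 (adjusted p 0.160) or Irf9 (0.300). With S6K1 loss 11 of the 14 interferon genes had a lower fitted level and 6 had an unadjusted p under 0.05. In the fit on group alone 0 were called, and 6 fell with the replicate block, where 4.15% of all genes were called. With loss of both kinases 0 were called and 1 had an unadjusted p under 0.05. Ifng had 0 counts in all libraries and Ifnb1 at most 4. Of the 4 proteases that cut or shed these ligands, Mmp2 fell with RAS in the S6K1/S6K2 series (−1.48, adjusted p 0.0272, or 0.0505 with the block, and −0.88 without the replicate 1 libraries, adjusted p 0.00576). In the S6K1 series it had −0.995 (adjusted p 0.213, or 0.000298 with the block).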

How the data were processed

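RNA-seq of 18 MEF libraries was deposited by the authors as raw read counts per gene, a single table of 55401 identifiers. The submitters' processing notes in the labels name CASAVA, STAR 2.7.1a, DESeq2 1.28.1 and mm10, whereas the study's methods name TopHat on mm9 with HTSeq and a stranded mRNA kit with single-end reads, so the mapping of these counts is not settled. Groups came from the sample labels. Symbols from the GENCODE annotation of NCBIM37 matched 32589 identifiers, which held 99.1% of counts, and 2662 were updated by RefSeq synonyms.

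Counts as deposited were filtered (filterByExpr, minimum count 10), TMM-scaled and tested with edgeR 4.0.16 (quasi-likelihood F test, group as the only term, 9 libraries of a series in each fit) in R 4.3.3, with Benjamini-Hochberg adjustment over all genes and a threshold of 0.05. SE was the log2 fold change over the square root of F. Series were compared as interaction contrasts over 18 libraries. Levels are TMM-scaled CPM, divided by exon length in kb where genes are compared. A different scaling, filter, tool (DESeq2 1.42.0) or sample set was tried as an alternative, and steps were tested on simulated data. Depth was 8319445 to 14402442 counts, and floors of 3 counts cover counting error only.

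Same-numbered libraries had correlated deviations from the group means, 0.684, 0.444 and 0.668 for RAS in the S6K1 series (KO and WT embryos were littermates), 0.692, 0.393 and 0.616 for KO against WT and 0.366, 0.293 and 0.308 for RAS in the S6K1/S6K2 series, so a fit blocked on replicate number is given there. In the S6K1/S6K2 series that block also covered the DKO libraries, whose numbers do not pair with WT. The members and gene lists were chosen with earlier results of these data known. Named genes were the 8 members, the targeted genes and Hras, every CXC receptor, up to 4 genes per list that passed the threshold (lowest p first) and the 3 genes most similar in pattern to each member that passed the filter. Some results for single listed genes are not reported here.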

Additional observations from a re-analysis of the deposited data

How the results depend on the processing

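For RAS in the S6K1 series the members called were 7 with the replicate block and 1 to 2 with a library left out, and the genes called 5085 and 1043 to 1818. For S6K1 loss, members called were 3 with the block and 2 without the replicate 3 libraries, and genes called were 583 with the block, 381 without those libraries, 63 in DESeq2, 108 with no filter on low counts, 4 with all 18 libraries in the fit, 0 with only the 6 libraries compared and 0 to 22 with a library left out. For RAS in the S6K1/S6K2 series, members called were 5 without the replicate 1 libraries, 2 with the block and 1 to 4 with a library left out, and genes called 2050 to 4199. For loss of both kinases, 0 members were called in every setting, and genes called were 10 in DESeq2, 11 with no filter, 7 with all 18 libraries, 1 to 2 with a library left out and 8 with the replicate block, whose numbers do not pair the DKO and WT libraries (correlations 0.279, 0.454 and −0.0351). The block changed no member's call other than those given in the report.

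Direction turned for Cxcl10 with RAS in the S6K1/S6K2 series, to 0.00431 in DESeq2, 0.0036 with DESeq2 size factors, 0.00261 with genes kept only at 10 or more counts in each library, 0.00225 with only the 6 libraries compared and −1.56 to 0.47 with a library left out. With both kinases lost, Cxcl5 turned to 1.07 and Cxcl14 to 0.55 without the replicate 1 libraries, and with a library left out the ranges were −1.29 to 0.64 for Cxcl5, −0.50 to 0.22 for Cxcl14 and −0.37 to 0.54 for Cxcl12. For S6K1 loss, Cxcl12 ranged from −0.70 to 0.15. For differences of RAS effects the ranges were −0.62 to 0.67 for Cxcl5 and −0.635 to 0.44 for Cxcl16, and for differences of loss effects −0.52 to 1.40 for Cxcl5, −0.41 to 1.61 for Cxcl10 and −0.23 to 0.92 for Cxcl12. None of these was called, apart from Cxcl10 at −1.56, and the cause was not tested. Sets of libraries left out together were chosen after seeing the data. Cxcl2 and Cxcl9 were limited by depth.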
